A study of Homo sapiens with 12 samples.

Results

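GBX2, OTX1 and OTX2 are homeobox genes that encode transcription factors of the early central nervous system. They are 3 of the 60617 genes in the deposited TPM table, were taken by gene name, and were selected on their TPM and counts across the culture conditions, whose differences were already known. The levels and changes of these 3 genes are therefore a description without a test, and p-values are given only for other genes.

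RNA-Seq had been performed on 201B7, an established human iPSC line grown on laminin-coated dishes in StemFit, a feeder-free medium for primed pluripotent cells. Cells were harvested on Day 5 from Cond 1, the untreated control, from Cond 2 ("Low nutrient"), fed with StemFit that had been heated at 56 °C for 30 min, from Cond 3 ("Differentiation"), switched to a DMEM-based medium containing 10% FBS, and from Cond 4 ("Physical stimulas" in the labels), pipetted 20 times at passage. Each condition had 3 libraries, with 16441148 to 21871503 counts per library, which the study calls technical replicates in its results, while its methods describe repeats of the experiment. The spread between libraries may thus be technical, and p-values measure only that spread. By the paper's account, heated medium was given from Day 2 and FBS on Day 4, so the time of exposure before harvest differed. All libraries came from a single line, without a second donor or clone. The labelled tissue is skin, which refers to the origin of the line: all 12 iPSC markers on a list (SOX2, LIN28A, DNMT3B and others) were at 1 TPM or more in every library, while of 8 fibroblast genes 4 (COL1A1, COL1A2, THY1 and PDGFRB) were at 1 TPM or more in all control libraries and DCN and LUM were close to 0.

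OTX2 and OTX1 are paired-like homeodomain proteins of the bicoid type. In the embryo OTX2 is needed for the forebrain and midbrain, and before that it is active in the epiblast and in primed pluripotent stem cells. OTX1 acts beside OTX2 in the same anterior territory and later in cortex and sense organs. GBX2 is a homeodomain protein of the anterior hindbrain. OTX2 and GBX2 repress each other where their territories meet, and the line between them becomes the isthmic organiser, the signalling centre at the midbrain-hindbrain boundary that makes FGF8. In mouse embryonic stem cells Gbx2 is also known as a target of LIF/STAT3 signalling in the naive state, while Otx2 accompanies the move to the primed state.

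On GRCh38, GBX2 (ENSG00000168505) occupies chr2:236165236-236168386 on the minus strand, and OTX1 (ENSG00000115507) lies far away on the plus strand of the same chromosome, at chr2:63050057-63057836. OTX2 (ENSG00000165588) occupies chr14:56799905-56816693 on the minus strand. The 250 bases before the RefSeq start (GRCh38.p14) are shown for GBX2, at chr2:236168387-236168636, and for OTX2, at chr14:56810480-56810729, since these genes differed most between conditions and in opposite directions. The OTX2 start is the first of a pair in the RefSeq table and lies inside the annotated gene, and counts per gene do not show which start was used. Capitals mark CpG dinucleotides.
GBX2: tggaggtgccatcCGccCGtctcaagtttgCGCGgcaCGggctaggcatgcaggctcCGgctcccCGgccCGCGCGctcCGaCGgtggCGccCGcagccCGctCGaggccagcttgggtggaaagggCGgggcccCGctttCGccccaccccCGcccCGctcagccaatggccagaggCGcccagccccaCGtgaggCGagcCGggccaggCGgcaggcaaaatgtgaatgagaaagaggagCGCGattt
OTX2: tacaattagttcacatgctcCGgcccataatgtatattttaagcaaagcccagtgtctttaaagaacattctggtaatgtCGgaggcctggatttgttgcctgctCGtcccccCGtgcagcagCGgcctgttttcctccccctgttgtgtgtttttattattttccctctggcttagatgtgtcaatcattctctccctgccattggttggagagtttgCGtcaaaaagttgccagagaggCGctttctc
The GBX2 promoter held 28 CpGs at a GC content of 72%, and the OTX2 promoter held 7 CpGs at 47.2%. The median of 35116 promoters of this length was 11 CpGs at 58% GC, so the genes lay on either side of it.

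Both strands of these promoters, over the 250 bases before the start only, were searched for the letters of 6 motifs. TAATCC, the core bound by OTX-type homeodomains, had no match at GBX2, OTX1 or OTX2 and was found in 5.62% of all promoters. TAATTA, bound by many homeodomains, CCGGAA, bound by ETS factors, ATCAAAG, bound by LEF/TCF factors, and TTCNNNGAA, bound by STAT factors, had no match either and were found in 4.35%, 14.5%, 2.26% and 6.57% of promoters. The CCAAT box had 1 match each in GBX2, OTX1 and the first OTX2 promoter and was found in 32.0% of promoters. TAATCC and TAATTA share their first 4 letters, and no motif lies within another. These letters describe the window only and say nothing about binding.

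GBX2 was detected in the control cells and was near the limit of detection in Cond 2 and Cond 3. In Cond 1 its level was 6.93, 4.63 and 9.88 TPM in replicates 1 to 3 (7.15 ± 2.63 TPM, SD, n = 3), from 89, 51 and 135 reads. In Cond 2 it was 0, 0.300 and 0.979 TPM (0.427 ± 0.502, SD, n = 3), from 0, 4 and 11 reads. The highest Cond 2 library lay below the lowest library of the control.

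In Cond 3, 2 of the 3 libraries held no GBX2 read, and the third held 10 reads at 0.808 TPM (mean 0.269 ± 0.467 TPM, SD, n = 3). In Cond 4 the level was 6.34, 3.68 and 8.09 TPM (6.04 ± 2.22, SD, n = 3), from 70, 44 and 102 reads, inside the range of the control apart from replicate 2, which was below it. A count of 0 allows a level of up to 0.255 TPM in replicate 1 of Cond 2 and of 0.210 and 0.235 TPM in replicates 1 and 2 of Cond 3, taking 3 counts as the limit and covering counting error only. In bulk RNA, fewer cells with GBX2 transcripts and less transcript per cell cannot be told apart.

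OTX2 was a well expressed gene in every library and was higher in both conditions in which GBX2 was low. Its level in Cond 1 was 89.7, 107 and 99.0 TPM (98.5 ± 8.66, SD, n = 3). In Cond 2 it was 355, 315 and 283 TPM (318 ± 36.2, SD, n = 3), and in Cond 3 it was 214, 183 and 181 TPM (193 ± 18.6, SD, n = 3). The 3 groups did not overlap, with Cond 1 lowest and Cond 2 highest. In Cond 4 the level was 94.0, 117 and 125 TPM (112 ± 16.2, SD, n = 3), which overlapped the control. Ranked among all genes by mean TPM, OTX2 stood at place 1754 in Cond 1, 476 in Cond 2, 817 in Cond 3 and 1520 in Cond 4.

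OTX1 was much less abundant than OTX2 and followed another order of conditions. Its level was 1.95, 3.11 and 1.91 TPM in Cond 1 (2.32 ± 0.683, SD, n = 3) and 2.46, 3.70 and 4.04 TPM in Cond 2 (3.40 ± 0.832, SD, n = 3). In Cond 3 it was 0.608, 1.85 and 1.48 TPM (1.31 ± 0.639, SD, n = 3), below every control library, and in Cond 4 it was 1.97, 2.1 and 2.64 TPM. Cond 2 overlapped the control through its replicate 1. The OTX1 values came from 18 to 102 reads in a library, those of OTX2 from 1456 to 5882.

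**Figure D1:**
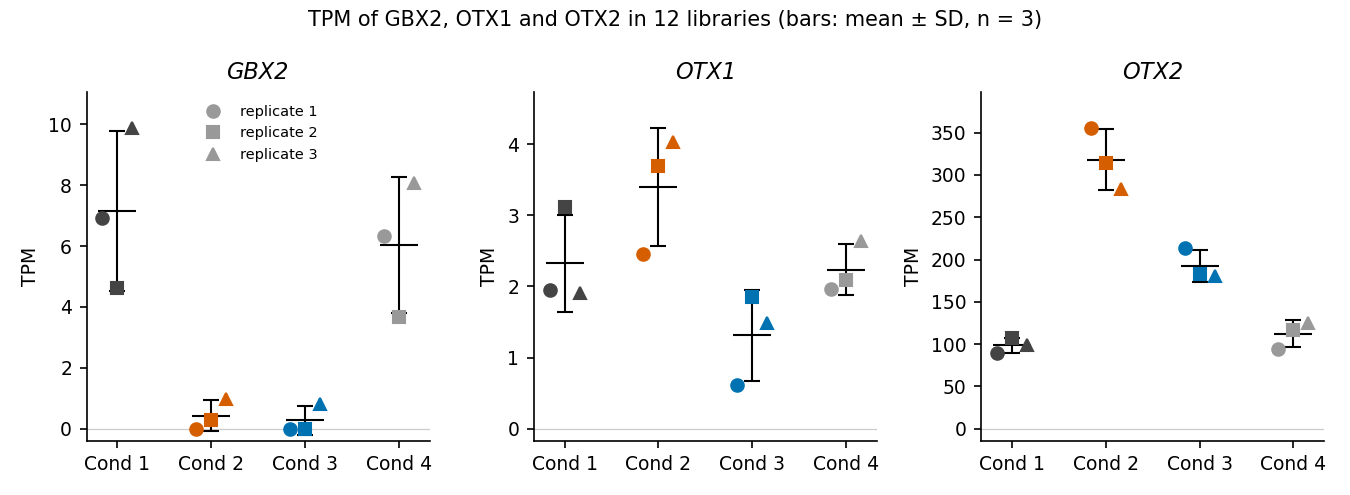
TPM (vertical axes, linear and separate for each gene) of GBX2, OTX1 and OTX2 in the 4 conditions; symbols are the 3 libraries of a condition by replicate number, and horizontal bars with whiskers are the mean ± SD. GBX2 was at most 0.979 TPM in the 6 libraries of Cond 2 and Cond 3 and at least 3.68 TPM in the other 6, while OTX2 was at least 181 TPM in the former and at most 125 TPM in the latter.

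Ordered by mean level, GBX2 was highest in Cond 1, then Cond 4, Cond 2 and Cond 3, and only the step from Cond 4 to Cond 2 separated all libraries of neighbouring conditions. OTX2 was highest in Cond 2, then Cond 3, Cond 4 and Cond 1, with an overlap only between Cond 4 and Cond 1. OTX1 was highest in Cond 2, then Cond 1, Cond 4 and Cond 3. Its libraries overlapped between Cond 2 and Cond 1 and between Cond 1 and Cond 4, and Cond 3 lay below Cond 4.

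The comparison of Cond 2 with Cond 1 asks what the heated medium changed. In the edgeR fit over all 12 libraries, GBX2 was at 0.0556 times its control level (log2 fold change −4.17, SE 0.853), OTX2 was 3.04-fold higher (log2 fold change 1.61, SE 0.126), and the log2 difference for OTX1 was 0.47 (SE 0.304). Libraries did not overlap for 2 of the 3 genes, GBX2 and OTX2, and did not overlap in 35.7% of the 17747 genes tested. Among these genes 0.214% had a log2 difference at least as large as that of GBX2, 2.77% one as large as that of OTX2 and 24.4% one as large as that of OTX1. Without replicate 3 of Cond 2, only 4 GBX2 reads were left, all in replicate 2, and the mean TPM was 47.6-fold lower than in Cond 1. This mean makes no allowance for the limit of detection in replicate 1, which held no read.

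Cond 3 against Cond 1 compares the serum-containing medium with the control. GBX2 was 27.6-fold lower (log2 fold change −4.78, SE 0.908), OTX1 was 1.80-fold lower (−0.85, SE 0.325) and OTX2 was 1.92-fold higher (0.94, SE 0.126). The libraries of all 3 genes were apart from the control, as were those of 48.6% of genes tested, so that such a separation was common in this comparison. A log2 difference of the size seen for GBX2 was reached by 0.107% of genes, that of OTX1 by 15.0% and that of OTX2 by 12.6%. All 10 GBX2 reads of Cond 3 came from replicate 3. Without this library GBX2 was at least 32.1-fold lower than in Cond 1, taking 3 counts per library as the limit.

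Cond 4 against Cond 1 compares pipetted cells with the control. The log2 differences were −0.27 (SE 0.627) for GBX2, −0.06 (SE 0.312) for OTX1 and 0.18 (SE 0.127) for OTX2. None of the 3 genes had groups that did not overlap, against 11.9% of genes tested. The SE of GBX2 is wide enough that a change of more than 1 log2 unit would lie within 2 SE of its value.

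Cond 3 and Cond 2 were also compared directly. Between them the time of exposure differed along with the medium, and these cannot be told apart. OTX1 was 2.49-fold lower in Cond 3 (log2 fold change −1.32, SE 0.318) and OTX2 was 1.59-fold lower (−0.67, SE 0.122), and for both the libraries did not overlap, as in 47.6% of genes tested. The log2 difference of GBX2 was −0.62 (SE 1.27), from 10 reads in Cond 3 and 15 in Cond 2, so that no difference was detectable at this depth. Without replicate 3 of Cond 3 this value has no stable estimate, since no GBX2 read was then left in Cond 3. The comparisons with Cond 1 share the control libraries and are not independent of each other.

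**Figure D2:**
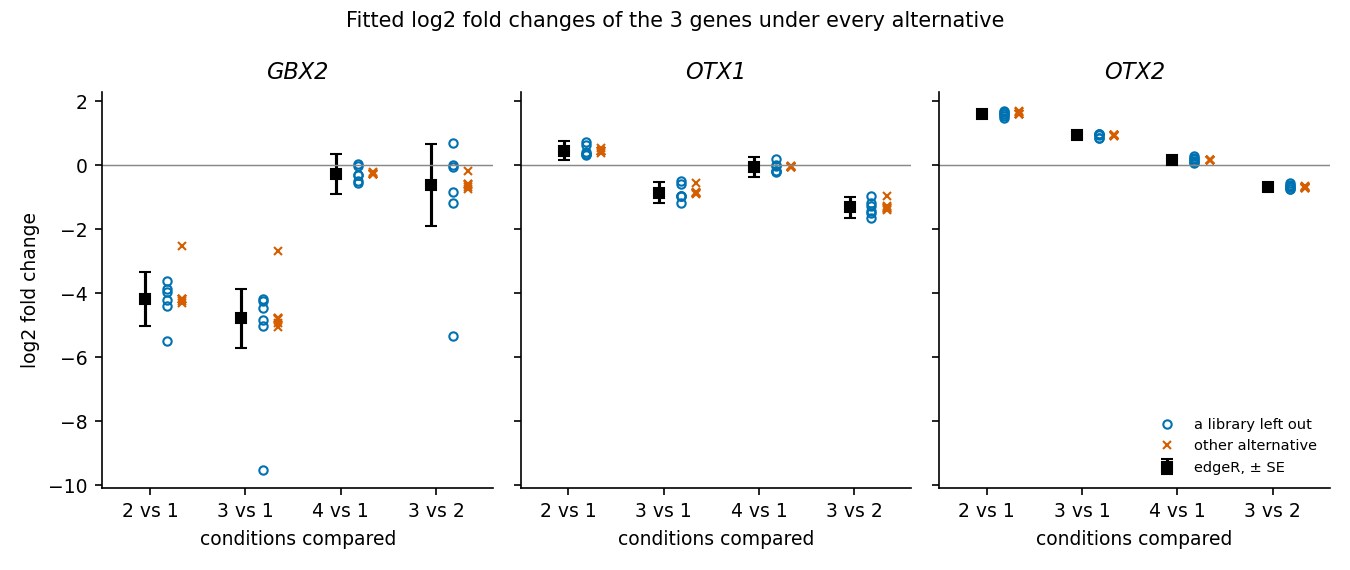
Fitted log2 fold change (vertical axis) of GBX2, OTX1 and OTX2 in the 4 comparisons of conditions (horizontal axis); black squares with bars are the edgeR value ± SE, open blue circles the same fit with a library of the compared conditions left out, and orange crosses the other alternatives. OTX2 stayed between 1.5 and 1.69 in Cond 2 against Cond 1 when a library was left out, whereas GBX2 in Cond 3 reached −9.52 once no read was left in that condition, a fitted value that is no measurement of size.

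The balance of the OTX genes lay further towards OTX2 in Cond 2 and Cond 3. OTX1 made up 2.28 ± 0.487% of the summed OTX1 and OTX2 TPM in Cond 1 and 1.96 ± 0.174% in Cond 4 (SD, n = 3). It made up 1.08 ± 0.365% in Cond 2 and 0.699 ± 0.372% in Cond 3 (SD, n = 3). All 6 values of the latter pair were below all 6 of the former. In Cond 2 the OTX1 level itself overlapped that of Cond 1, and in Cond 3 it was lower.

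The ratio of OTX2 to GBX2 in TPM was between 10.0 and 23.1 in the libraries of Cond 1 and between 14.8 and 31.9 in those of Cond 4. In Cond 2 it was 1048 in replicate 2 and 289 in replicate 3, and at least 1396 in replicate 1, where GBX2 had no read and 3 counts were taken as its limit. In Cond 3 it was 224 in replicate 3 and at least 1019 and 779 in the others. The lowest ratio in Cond 2 or Cond 3 was thus far above the highest ratio in the other conditions. GBX2 was more abundant than OTX1 per length in Cond 1, at 1.49 to 5.18 times the OTX1 level, and less abundant than OTX1 in every library of Cond 2 and Cond 3.

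Sequence shared with other genes, whose reads could be counted for these genes, was short. Of the 31-base words in annotated GBX2 transcripts 0.258% also occurred in GBX1, of those in OTX1 transcripts 0.225% occurred in other genes, and of those in OTX2 transcripts 0 did. GBX2 exons shared 221 bases, 9.48% of their length, with the antisense gene GBX2-AS1, which itself had 0 to 4 counts in every library. OTX2 exons shared 0 bases with OTX2-AS1. The libraries were strand-specific, and the strand setting used in counting is not given in the sources used here.

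The closest relatives of the 3 genes were measured at low levels. DMBX1 and CRX passed the count filter and rose in Cond 2 (adjusted p under 0.05, edgeR), where 10.9% of tested genes rose. DMBX1, a paired-like factor of the midbrain and diencephalon, was at 1.32, 1.10 and 0.648 TPM in Cond 1 and at 11.3, 7.01 and 5.73 TPM in Cond 2 (log2 fold change 2.89, SE 0.354, edgeR adjusted p = 5.27e-07). CRX, the photoreceptor member of the OTX family, was at 0.0285 to 0.141 TPM in Cond 1 and at 0.877 to 1.32 TPM in Cond 2 (3.45, SE 0.654, edgeR adjusted p = 2.40e-04). Both remained at a small fraction of the OTX2 level.

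In Cond 3, where 19.6% of tested genes rose, DMBX1 (log2 fold change 1.21, SE 0.372, edgeR adjusted p = 0.0113) and CRX (2.39, SE 0.677, edgeR adjusted p = 0.00619) rose as well. The call of DMBX1 was lost without replicate 3 of Cond 1 (adjusted p = 0.0720) and that of CRX without replicate 1 of Cond 3 (adjusted p = 0.0592). In Cond 4 neither passed the edgeR test. GBX1, the other GBX gene, was too low to be tested, with 0 or 1 reads in Cond 1, no read in Cond 2 and 6, 11 and 1 reads in Cond 3. OTX2-AS1, the antisense gene of OTX2, had at most 1 read in the control libraries, and 2 to 7 reads in each library of Cond 2 and Cond 3. GSC, a bicoid-type factor of the organiser, had 0 to 14 reads per library, and 14 only in replicate 3 of Cond 4.

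**Figure D3:**
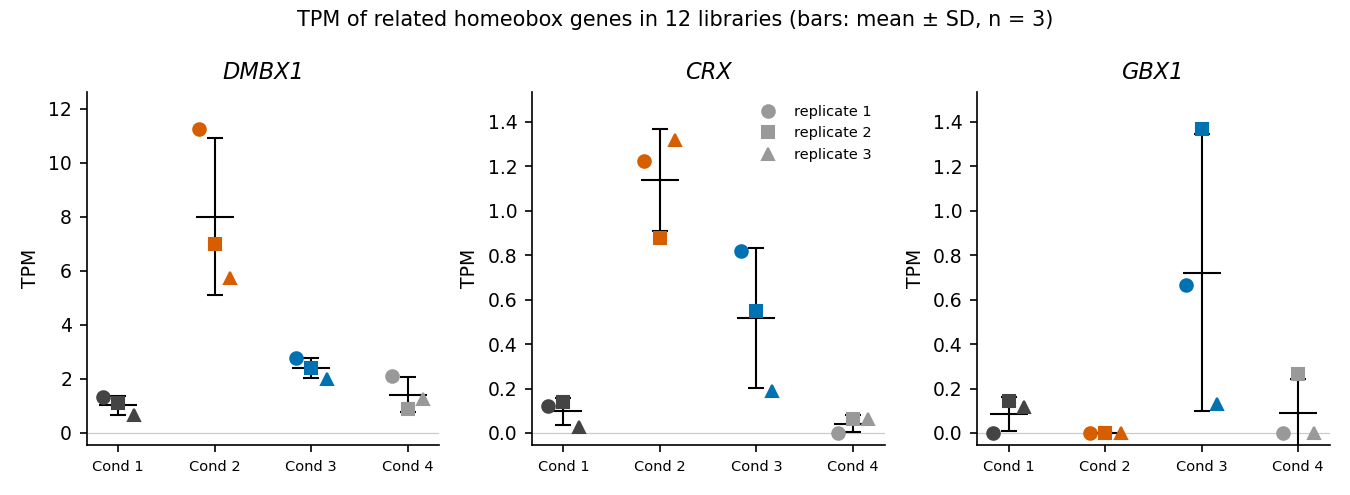
TPM (vertical axes, linear and separate for each gene) of DMBX1, CRX and GBX1 in the 4 conditions; symbols are the 3 libraries of a condition by replicate number, bars with whiskers the mean ± SD. DMBX1 and CRX were highest in Cond 2, and GBX1 had reads above 0.27 TPM only in 2 libraries of Cond 3.

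Genes of the anterior neural plate, where OTX2 acts in the embryo, were higher in Cond 2 for most members tested. Of 14 such genes 12 were tested, and 8 rose and 0 fell in Cond 2, where 10.9% of all tested genes rose and 10.2% fell. Their median log2 fold change was 2.93, beside 0.00018 for all genes tested. SIX3, a forebrain and eye field factor, was at 0.736, 2.34 and 4.09 TPM in Cond 1 and at 209, 155 and 109 TPM in Cond 2 (log2 fold change 5.94, SE 0.523, edgeR adjusted p = 5.47e-05). LHX5, a LIM homeodomain factor of the forebrain, rose from a mean of 7.93 to 262 TPM (4.97, SE 0.359, edgeR adjusted p = 1.44e-05), FEZF1, a zinc finger repressor of the forebrain, from 5.99 to 128 TPM (4.36, SE 0.207, edgeR adjusted p = 7.23e-09), and HESX1, a homeobox repressor of the anterior forebrain and pituitary, from 17.0 to 172 TPM (3.25, SE 0.189, edgeR adjusted p = 2.00e-09). DLK1, a Notch-family ligand placed on this list, rose from 5.55 to 123 TPM (4.37, SE 0.655, edgeR adjusted p = 0.00152).

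In Cond 3, where OTX2 was also high, 19.6% of all tested genes rose and 18.9% fell. Of the 12 anterior neural genes 4 rose and 1 fell, with a median of 0.12. FEZF1 (log2 fold change 3.33, SE 0.208, edgeR adjusted p = 5.05e-08) and LHX5 (2.01, SE 0.372, edgeR adjusted p = 0.00273) were among those that rose. SIX3 was at a mean of 2.70 TPM in Cond 3 (0.14, SE 0.755) and DLK1 at 4.01 TPM (−0.52, SE 0.788), and neither passed the test. In the direct comparison with Cond 2, 8 of the 12 genes were lower in Cond 3 and 0 were higher, where 19.2% of tested genes were lower.

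Genes of the isthmic organiser, between the OTX2 and GBX2 territories, were mostly too low to be tested: 4 of 11 were tested, and EN1, EN2, PAX2, PAX5 and PAX8 were not among them. In Cond 2, 2 of the 4 rose and 0 fell, beside 10.9% of all tested genes that rose, and in Cond 3, 1 rose and 0 fell, a share near the 19.6% of all that rose. FGF8, the organiser's signal, rose from a mean of 1.95 to 5.98 TPM in Cond 2 (log2 fold change 1.53, SE 0.458, edgeR adjusted p = 0.0166) and to 5.18 TPM in Cond 3 (1.38, SE 0.459, edgeR adjusted p = 0.0188). Both calls were lost in 3 of 6 fits with a library left out: replicates 2 or 3 of Cond 1 in either comparison, replicate 2 of Cond 2 and replicate 1 of Cond 3, with adjusted p of up to 0.0931 in Cond 2 and 0.10 in Cond 3. LMX1A, a factor of the dorsal midline, rose in Cond 2 from 0.105 to 1.20 TPM (3.37, SE 0.752, edgeR adjusted p = 0.00144).

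Of 14 hindbrain and posterior genes, 3 were tested, and HOXB1, HOXA2, HOXA3, HOXD3 and HOXD4 were at a mean of 0 TPM in every condition. EGR2, a hindbrain segmentation factor, fell in Cond 3 (−1.39, SE 0.276, edgeR adjusted p = 2.05e-04) and had a log2 difference of 0.60 (SE 0.247) in Cond 2. CDX4, a caudal-type factor, rose in Cond 3 (0.92, SE 0.361, edgeR adjusted p = 0.0439), a call lost in 4 of 6 fits with a library left out (replicates 1 and 3 of Cond 1 and replicates 2 and 3 of Cond 3), with an adjusted p of up to 0.137.

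FGF/ERK signalling is known to sustain GBX2 in the hindbrain and at the boundary, and its response genes moved in Cond 3. All 16 genes of this list were tested, 15 fell and 0 rose in Cond 3, with a median log2 fold change of −1.17, where 18.9% of tested genes fell. DUSP6, a phosphatase that acts on ERK, fell from a mean of 71.3 to 1.84 TPM (log2 fold change −5.29, SE 0.198, edgeR adjusted p = 1.76e-11), the ETS factor ETV5 from 32.7 to 2.25 TPM (−3.90, SE 0.204, edgeR adjusted p = 9.45e-10) and the feedback inhibitor SPRY4 from 82.5 to 16.3 TPM (−2.37, SE 0.0991, edgeR adjusted p = 7.29e-13). In Cond 2, where 10.2% of tested genes fell, 7 of the 16 fell and 1 rose, with a median of −0.15. DUSP6 (−1.11, SE 0.139, edgeR adjusted p = 2.70e-05) and ETV5 (−1.34, SE 0.166, edgeR adjusted p = 2.55e-05) fell here too, and DUSP4 rose (0.53, SE 0.146, edgeR adjusted p = 0.00867), a call lost without replicate 1 of Cond 2 (adjusted p = 0.0504). In the direct comparison with Cond 2, Cond 3 was lower for 15 of these 16 genes and higher for 1, where 19.2% of tested genes were lower. A relation between this list and the GBX2 level was not tested.

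The LIF/STAT3 and naive pluripotency list, which holds the pathway upstream of Gbx2 in mouse, did not move in a single direction. Of 12 genes tested, 2 rose and 4 fell in Cond 2 (median log2 fold change −0.06), beside 10.9% and 10.2% of all tested genes. In Cond 3, 1 rose and 1 fell (median 0.02), shares below the 19.6% and 18.9% of all. JAK1, a kinase of the LIF receptor, fell in Cond 2 (−0.87, SE 0.102, edgeR adjusted p = 2.86e-07) and SOCS3, a feedback inhibitor of STAT3, fell in Cond 3 (−0.83, SE 0.123, edgeR adjusted p = 5.98e-06). DPPA3 rose in Cond 2 (2.19, SE 0.693, edgeR adjusted p = 0.0233), a call lost in 5 of 6 fits with a library left out. ESRRB rose there too (0.78, SE 0.202, edgeR adjusted p = 0.00544). BCL3 fell in Cond 2 (−0.95, SE 0.236, edgeR adjusted p = 0.00418) and rose in Cond 3 (0.59, SE 0.219, edgeR adjusted p = 0.0330). Its Cond 3 call was lost in 4 of 6 such fits. STAT3 itself was at 47.0 TPM in Cond 1, 51.3 in Cond 2 and 53.0 in Cond 3, and passed the test in neither. The counts of this list depended on single libraries: the 6 calls in Cond 2 became 3 without replicate 1 or 3 of Cond 1 or replicate 2 of Cond 2, and the 2 calls in Cond 3 became 4 without replicate 2 of Cond 1 and 1 without replicate 3 of Cond 1 or replicates 1 or 2 of Cond 3.

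Genes of primed pluripotency, the state in which OTX2 is active, moved in both directions. Of 13 genes tested, 5 rose and 6 fell in Cond 2 (10.9% and 10.2% of all tested genes did), and likewise 5 rose and 6 fell in Cond 3 (19.6% and 18.9% of all). NANOG, a core pluripotency factor, fell in Cond 2 (log2 fold change −1.09, SE 0.0803, edgeR adjusted p = 6.71e-11) and in Cond 3 (−2.16, SE 0.0856, edgeR adjusted p = 1.30e-16). FOXD3, a forkhead repressor, fell from a mean of 50.6 to 12.6 TPM in Cond 2 (−2.08, SE 0.139, edgeR adjusted p = 1.20e-11) and was at 50.6 TPM in Cond 3. TDGF1, the NODAL co-receptor, fell in Cond 2 (−1.50, SE 0.162, edgeR adjusted p = 1.75e-04) and in Cond 3 (−0.94, SE 0.159, edgeR adjusted p = 0.00149). SOX2, a partner of OTX2 in these cells, rose in both (0.44 and 0.45, SE 0.0441 each).

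Groucho/TLE corepressors, which GBX2 and OTX2 can recruit, and PBX/MEIS cofactors formed a list of 12 genes, 9 of them tested. In Cond 2, 5 rose and 0 fell, where 10.9% of all tested genes rose, and in Cond 3, 5 rose and 1 fell, where 19.6% rose and 18.9% fell, with medians of 0.23 in both. The 5 calls in Cond 2 became 3 without replicate 1 or replicate 3 of Cond 1. TLE3 rose from a mean of 26.4 TPM to 46.5 in Cond 2 (log2 fold change 0.73, SE 0.0655, edgeR adjusted p = 2.50e-09) and to 43.5 in Cond 3 (0.69, SE 0.0654, edgeR adjusted p = 3.09e-09). TLE2 rose in Cond 3 (0.83, SE 0.147, edgeR adjusted p = 5.06e-05). MEIS2, chosen after its values were seen, rose from 0.159 to 1.02 TPM in Cond 3 (2.65, SE 0.495, edgeR adjusted p = 1.06e-04).

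Of WNT target genes, 9 of 11 were tested, and 1 fell and 0 rose in Cond 2, where 10.2% of all tested genes fell, while 2 rose and 1 fell in Cond 3, where 19.6% rose and 18.9% fell, so that these counts were near the background. AXIN2, a feedback inhibitor of the pathway, fell in Cond 2 (log2 fold change −0.41, SE 0.0890, edgeR adjusted p = 0.00121) and rose in Cond 3 (0.71, SE 0.0857, edgeR adjusted p = 2.07e-07). Of OTX2 targets in the eye, 4 of 10 were tested. PMEL, a pigment cell protein, rose in Cond 2 (0.42, SE 0.0593, edgeR adjusted p = 5.30e-06) and in Cond 3 (0.48, SE 0.0592, edgeR adjusted p = 2.79e-07), and BEST1, a channel of the retinal pigment epithelium, fell in Cond 3 (−2.61, SE 0.337, edgeR adjusted p = 5.72e-07). In Cond 4 no gene of any list passed the test, where 0.0169% of tested genes did.

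**Figure D4:**
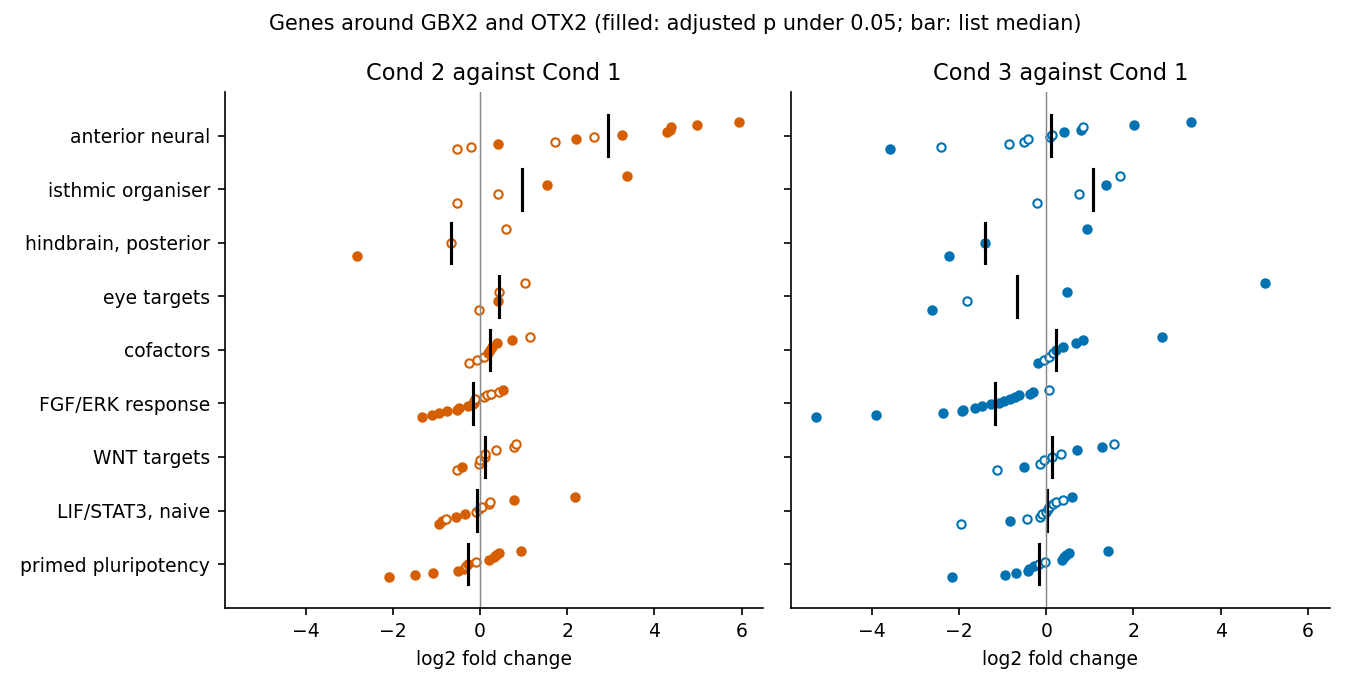
Log2 fold change against Cond 1 (horizontal axes) of the tested genes of 9 lists (rows) in Cond 2 and Cond 3; points are genes, filled where the edgeR adjusted p was under 0.05, and black bars are list medians. The anterior neural genes had a median of 2.93 in Cond 2 and 0.12 in Cond 3, and the FGF/ERK response genes −0.15 and −1.17.

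Markers of other cell types moved in the same libraries. In Cond 2, 6 of 9 tested genes of neural crest and surface ectoderm rose and 1 fell, where 10.9% of all tested genes rose and 10.2% fell, among them DLX5, a homeobox gene of the non-neural ectoderm, at 0 to 0.208 TPM in Cond 1 and 5.24 to 26.3 TPM in Cond 2 (log2 fold change 7.27, SE 0.834, edgeR adjusted p = 4.97e-06), and GATA3, from a mean of 0.268 to 7.46 TPM (4.66, SE 0.582, edgeR adjusted p = 4.31e-06). In Cond 3, 2 of the 9 rose (TFAP2A and EYA1) and MSX1 fell, where 19.6% of all tested genes rose and 18.9% fell. The summed level of this list was 82.1 to 85.8 TPM in Cond 1 and 78.5 to 111.9 TPM in Cond 2. This sum includes FOXD3, the gene of the list that fell in Cond 2, from a mean of 50.6 to 12.6 TPM, which offsets the genes that rose. HHEX, on the mesendoderm list, rose to 13.5 TPM in Cond 2 (3.71, SE 0.296, edgeR adjusted p = 2.66e-10) and to 3.23 TPM in Cond 3 (1.71, SE 0.314, edgeR adjusted p = 8.44e-05). TBXT, the mesoderm factor on this list, was at 0.0806 TPM in Cond 1 and rose to 1.1 TPM in Cond 3 (3.77, SE 0.973, edgeR adjusted p = 0.00294), while SOX17 and FOXA2 had no read in Cond 2 or Cond 3. The mesendoderm list summed to 5.79 to 11.6 TPM in Cond 1, 17.9 to 21.6 in Cond 2, 7.76 to 12.8 in Cond 3 and 8.61 to 9.05 in Cond 4. The fibroblast list summed to 424.2 to 455.8 TPM in Cond 1, 264.5 to 314.1 in Cond 2 and 587.2 to 624.1 in Cond 3, with 3 of 6 tested genes falling in Cond 2 and 3 rising and 1 falling in Cond 3, and DCN was at 0 in Cond 1, Cond 2 and Cond 3. The part of other cell types in the levels of GBX2, OTX1 and OTX2 was not tested.

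The protein-coding neighbours of each gene on its chromosome were examined as well. Of 12 flanking genes, the nearest 2 on each side, 11 were tested. In Cond 2, 5 rose and 1 fell with a largest log2 change of 0.73, where 10.9% of all tested genes rose and 10.2% fell. In Cond 3, 5 rose and 2 fell with a largest of 1.01, where 19.6% of all rose and 18.9% fell. With a library left out in turn, the call of MDH1 was lost in 4 of 6 fits in Cond 2 (adjusted p of up to 0.283, without replicates 1 or 2 of Cond 1 or 1 or 3 of Cond 2) and in 3 of 6 in Cond 3 (up to 0.246, without replicate 2 of Cond 1 or 1 or 3 of Cond 3). In Cond 3 it was also lost for AGAP1 in 3 fits (up to 0.0954, without replicate 1 of Cond 1 or 1 or 2 of Cond 3), for EXOC5 in 2 (up to 0.133, without replicate 1 of Cond 1 or 2 of Cond 3) and for WDPCP in 4 (up to 0.134, without replicates 1 or 3 of Cond 1 or of Cond 3). AGAP1, 33.4 kb from GBX2, was at 0.39 (SE 0.0688, edgeR adjusted p = 9.77e-05) in Cond 2, and IQCA1, 155.8 kb away on the other side, rose in Cond 3 (1.01, SE 0.159, edgeR adjusted p = 1.11e-05), so that neither fell where GBX2 was low. ASB18, on the side of IQCA1 and nearest to GBX2 at 25.1 kb, had too few counts to be tested. EHBP1, 3.57 kb from OTX1, and TMEM260, 149.3 kb from OTX2, passed the test in neither condition.

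The genes whose pattern over the 3 comparisons with Cond 1 was most like that of each member were found by the root mean square difference of log2 fold changes, among 15701 tested genes with a mean TPM of at least 1. For GBX2 the nearest were AP000943.2, a gene known only by this name, TRAC, the constant region of the T cell receptor alpha chain, FOXL2NB and PEX5L, at a distance of 0.84 to 1.27 log2 units, of the same order as the SE of the GBX2 fold changes. AP000943.2 had log2 fold changes of −3.00, −4.06 and 0.22 in Cond 2, Cond 3 and Cond 4. For OTX2 they were MAPK10, a JNK kinase, THRB, a thyroid hormone receptor, LPAR1, a receptor of lysophosphatidic acid, and PCDH7, a protocadherin, at 0.093 to 0.12, and for OTX1 RHOH, LINC01771, ZNF699 and AMOTL2, at 0.014 to 0.058. With the largest of the 3 differences as the measure, 3, 4 and 3 of these 4 genes were found again for GBX2, OTX1 and OTX2.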

How the data were processed

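The 3 genes and all gene lists were chosen with earlier results of these data known. According to the methods and the submitters' processing notes, the authors made the libraries from poly(A) RNA, trimmed reads (cutadapt 4.1, fastp 0.20.1), aligned them to GRCh38 with HISAT2 2.1.0 and counted them with featureCounts. The deposited counts are raw whole reads for each gene. For the deposited TPM, the authors scaled counts by gene length and by library total. Of 58580 lines of the count table, 5 held no whole gene row and were left out. A total of 2042 genes had a TPM but no count row.

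edgeR 4.0.16 (TMM, filterByExpr, robust, R 4.3.3) was run on counts as a quasi-likelihood test in one fit of 12 libraries, without a block, and p-values were adjusted by Benjamini-Hochberg over 17747 genes. A call was an adjusted p-value under 0.05. SE was the log2 fold change divided by the root of F. On simulated counts for Cond 2 against Cond 1, edgeR recovered 200 of 200 genes changed by 2-fold among 17210, with 3 false calls. The changed genes were drawn from well counted genes only, and every gene was given the same spread. This recovery does not extend to genes with few reads, such as GBX2 in Cond 2 and Cond 3. Positions came from GENCODE v44 (99.4% of identifiers found) and promoters from RefSeq. Genes were named by a fixed rule: the 3 genes, their listed relatives, flanking genes, the 4 nearest in pattern, and up to 4 per list with the largest called change and a mean TPM of at least 1. HESX1, SOX2, STAT3, ESRRB, LMX1A, TBXT, EYA1 and MEIS2, and genes named only as untested, were added after their values were seen. Alternatives were no count filter, upper-quartile scaling, DESeq2 1.42.0, limma 3.58.1 on log2(TPM + 1) and log2(TPM + 0.1), a TPM filter, 6 libraries alone, the replicate block, and each library left out in turn. Replicates of a condition differed by more than sampling noise. Same-numbered libraries correlated only weakly in their deviations, so the numbers were not taken as pairs. Values of some listed genes are not reported here.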

Additional observations from a re-analysis of the deposited data

How the results depend on the processing

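OTX2 and OTX1 kept their direction in every alternative run in the comparisons where their libraries did not overlap. GBX2 was −2.52 in Cond 2 and −2.69 in Cond 3 with limma on log2(TPM + 1), where a pseudocount of 1 is larger than its level in those conditions. Leaving out a library gave −5.50 to −3.62 for GBX2 in Cond 2, −9.52 to −4.16 in Cond 3 and −5.35 to 0.71 in Cond 3 against Cond 2. GBX2 and OTX1 have no value with a TPM of at least 1 required in all libraries, nor GBX2 in Cond 3 against Cond 2 with 6 libraries alone.

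Counts of genes past an adjusted p of 0.05 in Cond 4 against Cond 1 were 3 with edgeR (1096 at an unadjusted p under 0.05), 16 with DESeq2, 29 without a filter, 5 with either limma pseudocount and 12 with 6 libraries alone. With a fold change above 2 as well, the count was 1 with edgeR and 3, 6, 3 (+ 1), 4 (+ 0.1) and 2. In the other comparisons only limma on log2(TPM + 1) moved the fold-limited counts, from 770 to 435, or 268 with the TPM filter, in Cond 2, from 1443 to 806 or 479 in Cond 3, and from 1554 to 911 or 540 between them. With the TPM filter the anterior neural calls in Cond 2 fell from 8 to 5. The LIF/STAT3 calls were 3 in Cond 2 with limma on log2(TPM + 0.1) and with the TPM filter, 1 in Cond 3 with log2(TPM + 0.1), and 4 in Cond 3 with 6 libraries alone. With a library left out they were 3 to 4 in Cond 2 and 1 to 4 in Cond 3. Counts of the shorter lists, with under 10 genes tested, stayed within 1.5 times in 213 cases and moved further in 39. Except where stated above, the cause was not tested.

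Same-numbered libraries correlated at −0.013 to 0.038 in their deviations, and the replicate numbers were not taken as pairs. Between Cond 1 and Cond 4 every same-numbered value (0.020 to 0.028) lay above every value for different numbers (−0.027 to 0.0047). Whether libraries of the same number shared a plate or day is not stated in the sources used here. With the replicate block, calls against Cond 1 numbered 3801 in Cond 2, 6868 in Cond 3 and 3 in Cond 4, and 6801 between Cond 3 and Cond 2. GBX2 was at −4.25 and −4.92 in Cond 2 and Cond 3, OTX2 at 1.61 and 0.94, and 4 LIF/STAT3 genes were called in Cond 3. Depth limits GBX2 in Cond 2 and Cond 3, with 15 and 10 reads in all.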

Other observations

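MITF, the pigment cell regulator that OTX2 acts with in the retinal pigment epithelium, was at 0.0238 to 0.0885 TPM in Cond 1, 0 to 0.173 in Cond 2 and 1.43 to 1.73 in Cond 3 (log2 fold change 5.02, SE 0.724, edgeR adjusted p = 3.26e-06), and was chosen after its values were seen. TYR, TYRP1, DCT and RPE65 of the same list were too low to be tested. PMEL of this list was higher in Cond 3 as well, at a mean of 215 TPM against 151 in Cond 1, and BEST1 was lower.

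Genes of the anterior neural list differed several-fold within a condition, again noticed after the values were seen. SIX3 was at 0.736, 2.34 and 4.09 TPM in replicates 1, 2 and 3 of Cond 1 and at 1.01, 2.44 and 5.18 TPM in those of Cond 4. DLK1 was at 1.28, 5.41 and 9.95 TPM and at 1.57, 3.97 and 10.6 TPM in the same libraries, and RAX, an eye field factor, at 0.0975, 0.398 and 1.01 TPM and at 0.0567, 0.628 and 1.89 TPM. In both conditions the library numbered 1 was lowest and the library numbered 3 highest for these genes. Of all tested genes, 17.4% had the same number lowest and the same number highest in these conditions. GBX2 was highest in the library numbered 3 in all 4 conditions, and 4.76% of tested genes had the same number highest in all 4.

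In Cond 2 the library with the highest OTX2 level, replicate 1, also had the highest SIX3 (209 TPM), LHX5 (334 TPM), HESX1 (205 TPM), DMBX1 (11.3 TPM) and DLX5 (26.3 TPM) and the lowest TDGF1 (351 TPM) and FOXD3 (8.82 TPM), and it held no GBX2 read. The depth of this library was inside the range of the others.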
